A study of Mus musculus with 6 samples.

Results

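The GIMAP genes encode GTPases of immunity-associated proteins, a family of small guanine nucleotide-binding proteins that lie on intracellular membranes and are known mainly from lymphocytes. In mice and rats, loss of single members such as Gimap5 leaves animals short of T cells, and several members have been tied to lymphocyte survival, to proteins of the BCL2 family or to autophagy. The mouse genes sit side by side in a cluster on chromosome 6. The family examined here comprised 8 genes (Gimap1, Gimap3, Gimap4, Gimap5, Gimap6, Gimap7, Gimap8 and Gimap9), each represented by 1 probe set that names 1 gene, of 19938 genes measured in this way.

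The arrays compared starry-sky tumor-associated macrophages (SS-TAMs) with the tingible-body macrophages of normal germinal centers (GCMs), regarded as their counterparts outside tumors. SS-TAMs were laser-captured from tumors of 1.44 cm2 that the human Burkitt's lymphoma line BL2 formed in 3 female Balb/c SCID mice, where CD68 staining picked the cells. The scid mutation leaves mice without mature T and B cells while natural killer and myeloid cells remain. GCMs were captured from germinal centers of 3 female CSF1R EGFP transgenic Balb/c mice, immunocompetent reporter animals given 2 doses of sheep red blood cells; their tissue label names the spleen and their source label lymph nodes. All mice were 6 to 12 weeks old, and RNA of 1000 captured cells per mouse was amplified and hybridized to 1 array. Values are deposited intensities on a linear scale, and fold changes are differences of mean log2 intensity, SS-TAM minus GCM. Because host strain, tumor and tissue differ together between the groups, their parts in any difference cannot be told apart.

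The GIMAP genes were chosen by their intensities on these same 6 arrays, which were already known to be lower in SS-TAMs. The difference between the groups is therefore described for them. Where calls at an adjusted p are given for the members, those calls come from the same values and are not evidence for the difference.

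Captured material from both groups carried macrophage transcripts. Summed over 22 core macrophage markers, intensity ranged from 1141 to 1296 in GCMs and from 2864 to 3773 in SS-TAMs. Of the 22, SS-TAMs had 14 higher and 0 lower (limma with Benjamini-Hochberg adjustment, at an adjusted p under 0.05; 16 and 0 at an unadjusted p under 0.05). Of all genes, 5.15% were called higher and 4.76% lower. The brightest 1% of probe sets began at 614 to 664 on GCM arrays and at 241 to 284 on SS-TAM arrays. Bright values thus ran lower on SS-TAM arrays in general, and sums and folds were not corrected for this. Median intensity was 6.1 to 6.5 on the 6 arrays. On GCM arrays the macrophage markers varied widely: Lyz2, Aif1 and Tyrobp averaged 397, 168 and 160, whereas Adgre1, Mrc1 and Msr1 averaged 5.03, 6.40 and 6.63, near that median. The 19 measured T cell markers summed to 1407 to 1875 on GCM arrays, above the macrophage sum there, and to 310 to 429 on SS-TAM arrays. Sums over different probe sets are not shares of cells. No detection calls were used, so values below the median were not tested against background, and folds that rest on them are given as measured.

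The sequences just upstream of the genes with the largest, the second largest and the smallest difference are shown as a description only. They are the 250 bases before the RefSeq start site (build GRCm38.p6, all on the + strand, written 5′ to 3′ from far to near), for Gimap4 at chr6:48684328-48684577, for Gimap7 at chr6:48718371-48718620 and for Gimap5 at chr6:48745947-48746196. Capitals mark matches, on either strand, to GGAAGT, the core bound by ETS factors, and to TGTGGT or TGCGGT, the core bound by RUNX factors.
Gimap4: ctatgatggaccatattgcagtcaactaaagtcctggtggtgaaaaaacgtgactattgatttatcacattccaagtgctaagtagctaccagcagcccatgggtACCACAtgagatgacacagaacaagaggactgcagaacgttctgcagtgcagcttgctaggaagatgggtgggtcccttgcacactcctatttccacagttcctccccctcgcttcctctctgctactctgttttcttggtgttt
Gimap7: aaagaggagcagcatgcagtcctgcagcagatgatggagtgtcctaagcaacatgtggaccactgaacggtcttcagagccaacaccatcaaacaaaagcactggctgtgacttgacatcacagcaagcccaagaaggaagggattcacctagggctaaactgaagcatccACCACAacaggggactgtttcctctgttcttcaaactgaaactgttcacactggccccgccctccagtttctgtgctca
Gimap5: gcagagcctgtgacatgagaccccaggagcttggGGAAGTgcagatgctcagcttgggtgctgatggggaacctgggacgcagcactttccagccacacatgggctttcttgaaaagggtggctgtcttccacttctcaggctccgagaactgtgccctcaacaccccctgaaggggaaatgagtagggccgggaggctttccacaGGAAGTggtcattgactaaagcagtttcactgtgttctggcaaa
Gimap4 and Gimap7 each hold 1 RUNX match, read on the opposite strand, 145 and 79 bases before the start, and no ETS match. Gimap5 holds 2 ETS matches, 216 and 44 bases before its start, and no RUNX match. Over all 8 members, which have 9 such windows, a RUNX match occurs for 4 (Gimap1, Gimap4, Gimap7 and Gimap9) and an ETS match for 2 (Gimap5 and Gimap6), while 18.6% and 19.7% of the 32851 RefSeq windows of the same length hold one. CCACCC, a core bound by KLF factors, was found for 5 members and in 28.1% of windows. The letters were chosen with the sequences in view, and a match is a description of the sequence and not a binding site. Whether the sequences bear on the size of the differences was not tested.

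All 8 GIMAP genes were lower in SS-TAMs, with no overlap between the groups for any of them, against 11.6% of all genes with every SS-TAM array below every GCM array. By limma 7 of 8 were called lower (adjusted p under 0.05), as were 4.76% of all genes, and 9.92% of all genes were called in either direction. None was called higher, at an unadjusted p under 0.05 either. Because these values chose the group, nothing is read from either count. The median log2 fold change of the members was -2.31, a 4.96-fold difference, and that of all genes was 0.04. At least 2-fold lower were 6 members (Gimap1, Gimap3, Gimap4, Gimap6, Gimap7 and Gimap9), and 5 of them, all but Gimap1, were at least 4-fold lower, against 2.82% and 0.552% of all genes.

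Gimap4, whose protein has been linked to the timing of T cell death, had the largest difference. It was at 85.6, 152.4 and 124.7 on the GCM arrays and at 8.5, 8.9 and 7.8 on the SS-TAM arrays. The lowest GCM array thus lay far above the highest SS-TAM array, and the GCM arrays spread more than for any other member (SD 0.42 on the log2 scale). The difference was 14.02-fold (120.9 ± 33.6 against 8.40 ± 0.56; SD, n = 3), and the decrease ranked 10 among 19938 genes.

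Gimap7, which can stimulate GTP hydrolysis through dimers, followed with a log2 fold change of -3.31. Its GCM arrays read 189.6, 207.2 and 210.4 and its SS-TAM arrays 20.7, 17.9 and 23.1. This was the one member whose SS-TAM arrays all stayed well above the median intensity, and the difference was 9.88-fold. Gimap6, a partner of the autophagy protein GABARAPL2, read 50.5, 41.7 and 41 in GCMs and 5.4, 5.9 and 4.6 in SS-TAMs. All 3 SS-TAM arrays were below the median intensity, and the difference was 8.38-fold.

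Gimap9, about which less is known, was at 44.4, 56.9 and 45.8 in GCMs against 9.5, 8.1 and 6.5 in SS-TAMs, a 6.14-fold difference. Gimap3, a close relative of Gimap5 that has been linked to mitochondrial DNA segregation in mice, was at 17.7, 17.2 and 18.6 in GCMs and at 4, 4.8 and 4.6 in SS-TAMs. Its GCM arrays were the tightest of the family (SD 0.06 on the log2 scale), whereas its SS-TAM arrays were all below the median intensity. The RefSeq table lists Gimap5 among older names of Gimap3, and both were therefore taken by gene ID.

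The other 3 members differed less, and their GCM means were the lowest of the family. Gimap1, which is needed for mature T and B cells, was at 13.8, 17.1 and 12.9 in GCMs and at 7.3, 7 and 7 in SS-TAMs, a 2.04-fold difference. Gimap8, the member with several GTPase domains, was at 9.5, 12.9 and 13.1 against 6.2, 5.5 and 8.8, so that SS-TAM replicate 3 came within 0.11 on the log2 scale of GCM replicate 1. It was the member that limma did not call. Gimap5 was at 5.3, 6.3 and 5.9 in GCMs and at 3.8, 4.1 and 4.7 in SS-TAMs. Of its 3 GCM arrays 2 were themselves below the median intensity, so that its log2 fold change of -0.48 compares low levels on both sides.

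**Figure D1:**
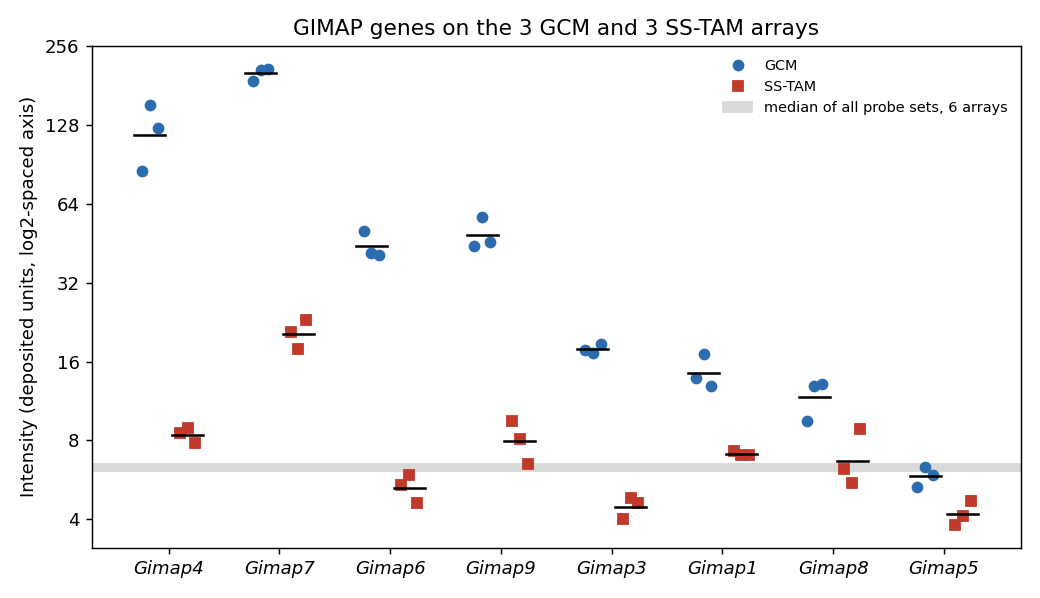
Intensity in deposited units (log2-spaced axis) of the 8 GIMAP genes, ordered by fold change; each point is 1 array of 3 GCM (blue circles) or 3 SS-TAM (red squares) arrays, black bars are geometric means, and the grey band spans the median intensities of the arrays (6.1 to 6.5). No gene has overlapping groups, and Gimap7 is the gene whose SS-TAM arrays lie farthest above the band, at 17.9 to 23.1.

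The members differed in the size of the difference. Apart from Gimap7, their SS-TAM means were 4.20 to 8.40, around the median intensity. A large fold was then possible only where GCM values were high, so fold size and GCM intensity cannot be told apart. Across all pairs of 1 GCM and 1 SS-TAM array, the differences ran from 1.84 to 2.22 on the log2 scale for Gimap3 and from 0.82 to 1.29 for Gimap1, without overlap. Among the members with larger differences, Gimap4 (3.27 to 4.29), Gimap7 (3.04 to 3.56) and Gimap6 (2.80 to 3.46) overlapped, as did both Gimap7 and Gimap6 with Gimap9 (2.22 to 3.13), so the order within these overlaps is not resolved, whereas Gimap4 and Gimap9 did not overlap. Among the members with smaller differences, the ranges of Gimap1, Gimap8 (0.11 to 1.25) and Gimap5 (0.17 to 0.73) overlapped too, apart from those of Gimap1 and Gimap5. The spacing depended on the scale: with an offset of 16 added before log2, Gimap3 had a log2 fold change of -0.73, nearer to Gimap1 (-0.40) than to Gimap9 (-1.43), and Gimap7 (-2.58) passed Gimap4 (-2.46).

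Within each group the members did not share an order of arrays. GCM replicate 1 was the lowest GCM array for 5 members and the highest for 1, and GCM replicate 2 was the highest for 4. Among SS-TAMs each array was the highest for 2 or 3 members. After each group was centred, the correlation over the 6 arrays had a median of 0.08 over the 28 pairs of members, with 15 pairs above 0. Pairs ranged widely, from -0.99 (Gimap6 and Gimap8) to 0.93 (Gimap7 and Gimap8). These points share arrays and rest on few samples. Spread between arrays was 0.03 to 0.35 in SS-TAMs and 0.06 to 0.42 in GCMs (SD on the log2 scale, n = 3), beside medians over all genes of 0.14 and 0.07.

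Genes whose centred profile over the 6 arrays lay nearest the mean of the members came from other families. They were Pdcd4, an inhibitor of translation initiation, the small GTPase gene Rras2, the ribosomal protein genes Rpl5 and Rpl28, Mir692-1 and the DNA polymerase subunit gene Pole4, at root mean square distances of 0.08 to 0.14 on the log2 scale. Pdcd4 was at 110 ± 7.26 in GCMs and 23.8 ± 2.00 in SS-TAMs, and Rras2 at 34.0 ± 6.27 and 7.27 ± 0.21 (SD, n = 3). Rpl5 was at 828 ± 90.5 in GCMs and 179 ± 22.4 in SS-TAMs, and Rpl28 at 853.5 ± 20.2 and 187 ± 16.3. A gap of this size was therefore not particular to the members. Among the members Gimap3 was nearest to their own mean, at 0.14, and Gimap4 farthest, at 0.86. The measure weighs the gap between the groups more than differences within them.

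**Figure D2:**
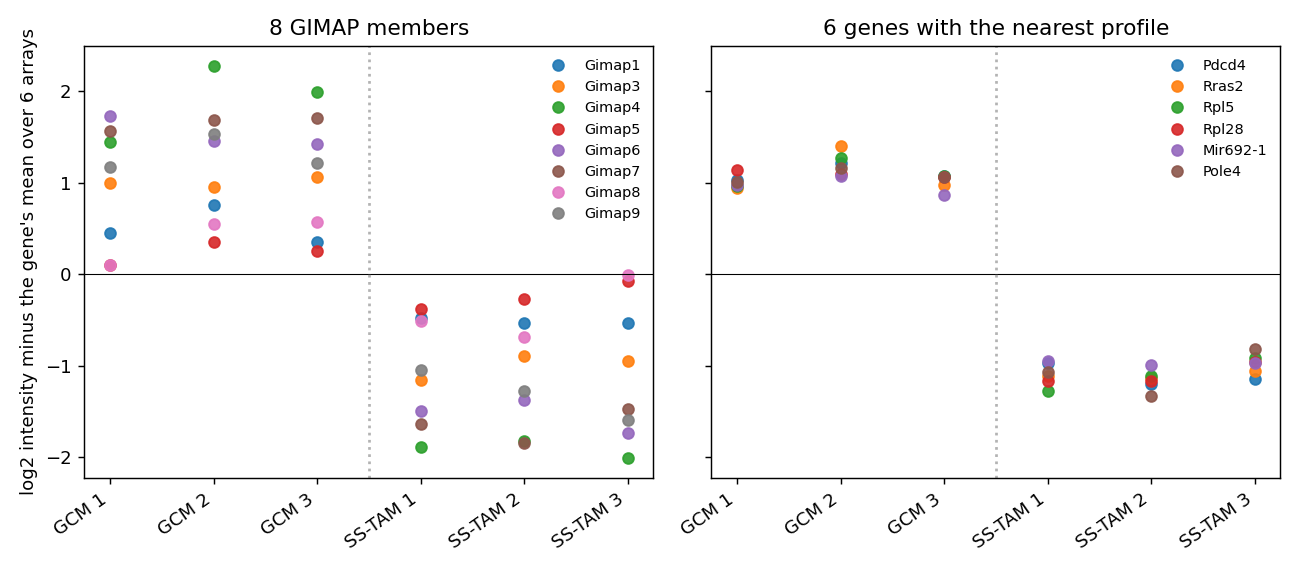
Log2 intensity of each gene minus its mean over the 6 arrays, for the 8 GIMAP genes (left) and the 6 genes with the nearest profile (right); each point is 1 array and colors mark genes. GIMAP genes range from 0.10 (Gimap8) to 2.28 (Gimap4) above their means on GCM arrays, and the nearest genes lie at 0.86 to 1.399.

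In the order of the chromosome the cluster runs Gimap8, Gimap9, Gimap4, Gimap6, Gimap7, Gimap1, Gimap5 and Gimap3, with no other protein-coding gene between them in the RefSeq table. Gimap6 and Gimap3 are on the - strand and the other 6 on the + strand. The 4 largest differences were those of 4 adjacent genes, Gimap9, Gimap4, Gimap6 and Gimap7, while Gimap8 on one side and Gimap1 and Gimap5 on the other differed less. Those 4 genes also had the 4 highest GCM means of the family (44.4 to 202).

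The genes around the cluster did not share its direction. Of the 10 measured protein-coding genes on each side, 3 were called higher and 2 lower in SS-TAMs. At an unadjusted p under 0.05 from limma these counts were 4 and 4. The neighbors had a median log2 fold change of 0.16, with 8 of the 20 below 0. Of all genes, 5.15% were called higher and 4.76% lower. On the side of Gimap8, Atp6v0e2, a proton pump subunit gene, was higher (log2 fold change 0.53, adjusted p = 0.043 from limma) and none was lower. Next to Gimap3, Tmem176b, an immune membrane protein gene, fell by 1.44 on the log2 scale (GCM 75.6 ± 9.55, SS-TAM 29.1 ± 11.1; SD over 3 arrays; limma adjusted p = 0.035). The adjoining Tmem176a was at 20.0 ± 0 and 16.6 ± 4.53 (adjusted p = 0.40 from limma). Its GCM arrays held the same deposited value, as did those of Krba1 on the other side (6.9 ± 0). Such an SD is not read as the spread between mice. Farther out, Gpnmb, a glycoprotein gene of lysosome-rich macrophages, rose by 3.33 (adjusted p = 0.0063 from limma) and Gm7932 by 0.70, and the mitoribosome assembly gene Malsu1 fell by 0.78 on the log2 scale. Gpnmb kept its call without any 1 array, whereas the other 4 lost theirs without each of the GCM arrays and without at least 1 SS-TAM array (adjusted p up to 0.53 over the alternatives). Relative to core macrophage markers, Atp6v0e2 and Gm7932 were lower, but so were 19747 of all 19938 genes, so nothing is read from those calls.

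**Figure D3:**
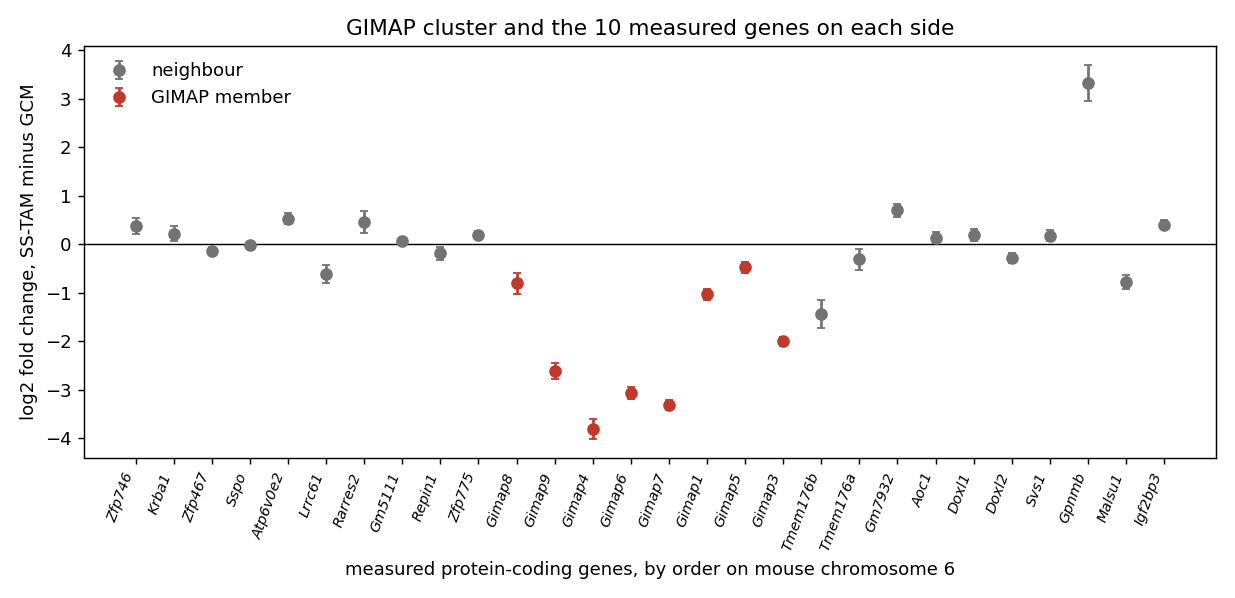
Difference in mean log2 intensity (SS-TAM minus GCM) for the 8 GIMAP genes (red) and the 10 measured protein-coding genes on each side (grey), by order on mouse chromosome 6; bars are standard errors from limma. GIMAP genes span -3.81 (Gimap4) to -0.48 (Gimap5), neighbors lie between -1.44 (Tmem176b) and 0.70 apart from Gpnmb at 3.33.

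Genes of the proteins that GIMAP proteins bind or act beside moved in both directions. Of 11 measured genes of the BCL2 family and of autophagy, 2 were called higher and 2 lower, with a median log2 fold change of 0.03. At an unadjusted p under 0.05 from limma, 3 were higher and 2 lower. Of all genes, 5.15% were called higher and 4.76% lower. Bcl2, the anti-apoptotic founder of its family, had SS-TAM arrays at 16.9 ± 0.70 and GCM arrays at 28.1 ± 3.49 (SD over 3 arrays; limma adjusted p = 0.011). Its relative Bcl2l1, which encodes BCL-xL, went the other way, with 20.5 ± 0.95 on SS-TAM and 12.4 ± 0.35 on GCM arrays (limma adjusted p = 0.0024). Gabarapl2, which encodes the partner of GIMAP6, fell by 0.90 and the related Gabarapl1 rose by 0.33 on the log2 scale (adjusted p = 0.034 and 0.040 from limma). Bcl2 and Bcl2l1 kept their calls without any 1 array. Gabarapl1 lost its call whichever array was left out, and Gabarapl2 without SS-TAM replicate 2 or each of the GCM arrays. Their largest limma adjusted p values over the alternatives were 0.14 and 0.13. Gabarapl2 also lost its call with the mean of its probe sets and with a replicate block. Gabarapl1 also lost its call after quantile normalization or median centring, and with another variance model, array weights or the block. With arrays scaled to core macrophage markers Bcl2l1 and Gabarapl1 were lower, but so were 19747 of all 19938 genes, so nothing is read from those calls.

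Among 18 measured genes of lymphocyte quiescence, survival and traffic, 5 were lower and none higher (8 and 0 at an unadjusted p under 0.05 from limma), with a median of -0.34 on the log2 scale. The shares over all genes were 4.76% lower and 5.15% higher. Satb1, a chromatin organizer of T cells, averaged 65.8 ± 15.2 on GCM arrays and 6.27 ± 1.47 on SS-TAM arrays (SD over 3 arrays; limma adjusted p = 0.0015). S1pr1, the receptor that guides lymphocyte exit from tissues, averaged 137 ± 26.4 and 23.9 ± 8.60 (limma adjusted p = 0.0054). The actin regulator gene Coro1a, the chemokine receptor gene Ccr7 and the transcription factor gene Ets1 had log2 fold changes of -2.35, -1.70 and -1.21. Il7r, the receptor for the survival cytokine IL-7, averaged 47.1 ± 10.3 on GCM and 25.4 ± 7.05 on SS-TAM arrays (limma adjusted p = 0.077). Of the 5 called, Ccr7 lost its call without any 1 array except GCM replicate 1 (adjusted p up to 0.13 over the alternatives).

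Other GTPase families of immune cells differed less. Of 13 measured genes, among them guanylate-binding proteins, immunity-related GTPases and Mx proteins, 1 was lower and none higher (7 and 1 at an unadjusted p under 0.05 from limma), with a median of -0.41. With 4.76% of all genes lower and 5.15% higher, nothing is read from that count. The gene called was Rap1a, a regulator of integrin adhesion, which averaged 246 ± 56.8 on GCM and 124 ± 10.8 on SS-TAM arrays (limma adjusted p = 0.029), and it lost its call without any 1 array except GCM replicate 3 and after quantile normalization (log2 fold change -0.09). With SS-TAM replicate 2 or GCM replicate 1 or 2 left out 0 of the 13 were called.

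Markers of T cells moved with the GIMAP genes. Of 19 measured T cell markers, 11 were lower and none higher (14 and 0 at an unadjusted p under 0.05 from limma), where 4.76% of all genes were lower and 5.15% higher. The markers had a median of -0.82 on the log2 scale, and their summed intensity was 1407 to 1875 on GCM arrays and 310 to 429 on SS-TAM arrays. The largest changes were in the surface and receptor genes Cd3g, Cd2 and Cd3d (-5.79, -4.85 and -4.33 on the log2 scale), whereas Cd4 averaged 33.6 ± 7.09 on GCM and 30.1 ± 3.72 on SS-TAM arrays. Without 1 array 7 to 10 of the 19 were lower, with 7 without GCM replicate 2 or 3, where Cd3e, Cd28, Icos and Themis lost their calls; Cd3g, Cd2 and Cd3d kept theirs without any 1 array. The SS-TAM hosts were SCID mice, which lack mature T cells, and the GCM hosts were immunocompetent. The part of T cells in the GIMAP values was not tested. From the arrays alone, fewer cells of a type and less RNA per cell cannot be told apart.

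Markers of other cells were counted in the same way, beside the same shares of 4.76% of all genes lower and 5.15% higher. Among the 17 B cell markers 2 were lower, the B cell receptor and surface genes Cd79a and Ms4a1, and 0 higher (6 and 0 at an unadjusted p under 0.05 from limma). Their summed intensity was 642 on GCM replicate 1, 241 and 247 on the other GCM arrays and 176 to 212 on SS-TAM arrays. Of 12 natural killer and cytotoxic markers, Ccl5, Nkg7 and Eomes were lower and none higher (3 and 0 at an unadjusted p under 0.05), with sums of 348 to 400 in GCMs and 95 to 111 in SS-TAMs. Most of that gap lay in Ccl5, which alone averaged 272 on GCM and 26.0 on SS-TAM arrays, and 9 of the 12 were not called. Dendritic cell markers were called lower for 4 of 12 (Ccr7, Dpp4, Flt3 and Clec9a) and higher for none. At an unadjusted p under 0.05 from limma, 6 were lower and 1 higher. The dendritic cell sums were 184 to 267 in GCMs and 127 to 141 in SS-TAMs. Most of that gap lay in Ccr7, which alone averaged 108 on GCM and 33.5 on SS-TAM arrays. Endothelial cells also express several GIMAP genes, and of 18 endothelial markers Robo4 was higher (adjusted p = 0.050 from limma) and none lower (2 and 1 at an unadjusted p under 0.05), a call lost without any 1 array except SS-TAM replicate 2, with sums of 131 to 153 in GCMs and 138 to 145 in SS-TAMs. None of 10 neutrophil markers was called by limma (2 higher and 0 lower at an unadjusted p under 0.05), with sums of 54.8 to 58.8 in GCMs and 58.4 to 59.7 in SS-TAMs. Of 8 erythroid and platelet markers the platelet chemokine gene Pf4 was called higher and none lower (2 and 0 at an unadjusted p under 0.05). Their sums were 48.5 to 49.4 in GCMs and 62.1 to 67.1 in SS-TAMs. Of these calls Ccl5 and Pf4 held without any 1 array, whereas Cd79a, Ms4a1, Nkg7, Eomes, Flt3, Clec9a, Dpp4 and Ccr7 each lost theirs without 1 or more of the arrays, GCM arrays among them (limma adjusted p up to 0.16 over the alternatives). No marker was at 0 on any array, and the part of these cells in the GIMAP values was not tested.

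**Figure D4:**
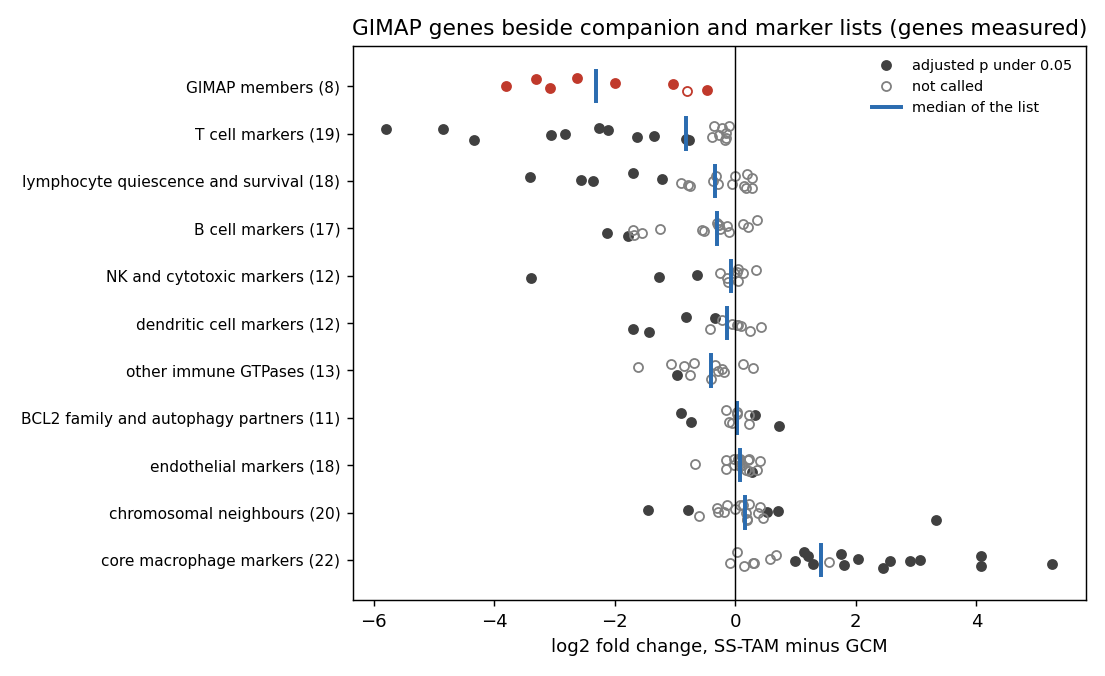
Difference in mean log2 intensity, SS-TAM minus GCM, for each list's measured genes; each point is 1 gene, filled where limma's adjusted p was under 0.05, GIMAP genes are red, and blue ticks are medians. GIMAP genes have a median of -2.31, T cell markers of -0.82 and core macrophage markers of 1.43, and endothelial markers center on 0.08.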

How the data were processed

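The authors deposited 1 table of intensities on a linear scale, rounded to 1 decimal, for 28944 probe sets on 6 Affymetrix Mouse Gene 1.0 arrays; the submitters' processing notes name RMA and limma, without a version; settings were not stated. Log2 was taken of the deposited intensities without further scaling. Gene names came from the array platform's annotation, updated by gene ID through the RefSeq gene table (21698 matched); 1621 probe sets naming several genes and 5534 unnamed here were left out, and the probe set with the highest mean stood for each of 999 genes with several. SS-TAM and GCM arrays (3 each) entered 1 fit in limma 3.58.1 under R 4.3.3 (eBayes after lmFit, two-sided, no covariate), adjusted by Benjamini-Hochberg over 19938 genes at 0.05, a procedure tested on simulated data. In all, 1027 genes were higher and 950 lower (745 and 1172 after centring arrays on their medians). The number of arrays limits precision.

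The members, lists and motifs were chosen with earlier results of these data known. Named genes are all members, the largest called changes of each list (up to 6, or 3 for markers), and the 6 nearest profiles; Cd4, Il7r, Tmem176a, Clec9a, Robo4, Cd3e, Cd28, Icos and Themis were added after their values were seen. Genes without a probe set naming 1 gene were not used. Alternatives covered scaling, dim genes, probe set choice, variance model, array weights, an offset of 16, a replicate block, a 2-fold criterion and each array left out.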

Additional observations from a re-analysis of the deposited data

How the results depend on the processing

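All 119 values of single members under the alternatives were below 0, and 6 members (Gimap1, Gimap3, Gimap4, Gimap6, Gimap7 and Gimap9) were called lower in all 16 alternatives. The mean of probe sets, the variance model, the replicate block and leaving out dim genes cannot change a member's fold change. The 119 values are therefore not separate checks of the sign. Because the same arrays chose the members, these counts describe the processing and are not evidence for the difference. Gimap5 lost its call with array weights, an offset, the block, the 2-fold criterion and without any 1 array except SS-TAM replicate 3, and Gimap8 gained one after median centring, relative to core macrophage markers, without dim genes and without SS-TAM replicate 3. The median log2 fold change of the members was -2.27 after quantile normalization, -2.37 after median centring, -2.62 with dim genes (Gimap5 among them) left out and -1.08 with an offset of 16. Quantile normalization took Gimap7 from -3.31 to -2.86 and Gimap4 from -3.81 to -3.55. With arrays scaled to core macrophage markers, all genes had a median of -1.69 and the members of -4.04, which is -2.35 relative to all genes, and called 76 genes higher, 19747 lower and every measured partner (11), quiescence gene (18), other GTPase (13) and neighbor (20). The 2-fold criterion gave 278 genes higher and 475 lower, 0 partners, 0 other GTPases and 2 neighbors. Of the other GTPases 3 were called without dim genes and 0 with array weights.

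Leaving out 1 array gave 6 to 8 members called lower, a median of the members of -2.35 to -2.25, 271 to 1157 genes higher and 404 to 801 lower, 2 to 3 partners, 4 to 5 quiescence genes, 0 to 3 other GTPases and 1 to 6 neighbors; counts over all genes were lowest without GCM replicate 2. Same-numbered arrays deviated together with correlations of 0.09, 0.08 and 0.02, so their numbers were not taken as pairs, although each of the 6 arrays correlated best with its own number. The replicate block gave 610 genes higher and 711 lower, 6 members lower, 2 partners, 2 other GTPases and 3 neighbors. The causes of these changes were not tested.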
